A study of Mus musculus with 4 samples.

Results

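The muscarinic and nicotinic acetylcholine receptors were followed through 10 of their genes, Chrm1 to Chrm5, Chrna3, Chrna4, Chrna5, Chrna7 and Chrnb2, out of 31899 genes listed in all 4 libraries of the study. The genes were taken by name, though with earlier results of these data known, and each was read singly in every library. Single-nucleus RNA sequencing had been run on the microdissected posterior substantia innominata, a basal forebrain region beneath the striatum. Per the labels, the mice were wild type and 8 weeks old, 2 libraries came from males and 2 from age-matched females, and sex differences in the neurons were the stated aim. The sources used here give neither the strain nor how many animals went into each library, or whether libraries share animals. P-values between the sexes therefore rest on the spread between these 4 libraries alone. Those between classes of nuclei rest on how far the class difference varied among the 4 libraries. Either spread may be technical.

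Acetylcholine acts on muscarinic receptors, which couple to G proteins, and on nicotinic receptors, which are ligand-gated cation channels made of subunits. Among the muscarinic receptors, M1, M3 and M5 couple to Gq and phospholipase C, and M2 and M4 to Gi, which lowers cyclic AMP and opens potassium channels. M2 is the classical autoreceptor of cholinergic neurons, α4 with β2 forms the main nicotinic receptor of the brain, α5 joins it as an accessory subunit, α7 can form channels by itself, and α3 is best known from ganglia.

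Nuclei were sorted into classes by counts of unique molecular identifiers (UMIs, each 1 captured RNA molecule) of a few marker genes, none of them an acetylcholine receptor gene. Cholinergic nuclei held at least 2 UMIs of Chat and Slc5a7 together, GABAergic nuclei at least 2 of Gad1 and Gad2, and glutamatergic nuclei at least 2 of Slc17a6 and Slc17a7. Glia were classed in the same way as astrocytes, oligodendrocytes, oligodendrocyte precursors (OPCs) and microglia, and nuclei in 2 or more classes were left out, except that a cholinergic nucleus could hold Gad or Slc17 UMIs. GABAergic nuclei were split further by Drd1, Drd2, Tshz1, Moxd1 or Sst. Wherever 4 values are given without names, they stand for male 1, male 2, female 1 and female 2, in that order. There were 76, 86, 136 and 78 cholinergic nuclei, 3909, 3819, 3086 and 2735 GABAergic nuclei, and 379, 390, 145 and 159 glutamatergic nuclei. Levels are given as CPM, the UMIs of a gene per 1000000 UMIs summed over its class, and folds come from summed counts.

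The libraries differed in more than sex. The males held 158132452 and 144035342 UMIs and the females 53098268 and 53679351, with 9157 to 10965 barcodes each. Software version and gene list changed with sex, and they also differed between the females (7.0.0 with 55357 genes in female 1, 7.2.0 with 32285 in female 2) but not between the males (9.0.1 with 33696). The male libraries had 0 barcodes in common with the female ones, against 23 in common between the males and 35 between the females. Sex therefore cannot be told apart from depth, barcode set, software and gene list. When the GABAergic sums of 2 libraries of 1 sex were divided gene by gene, the log2 ratios had an SD of 0.242 in males and 1.04 in females, so the females stood far apart from each other. Of the nuclei kept, 19.6%, 20.8%, 47.7% and 46.2% met no class, and 13.2%, 12.1%, 5.16% and 5.54% met 2 or more.

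Markers that the rule did not use followed most class names. All 6 cholinergic markers were highest in the cholinergic class, with a summed level of 319 to 404 CPM against 35.8 to 58.5 in the GABAergic class. All 5 markers were highest in their own class for glutamatergic nuclei and for each of the 4 kinds of glia, though the glutamatergic markers summed to only 17.4 to 28.3 CPM. The split groups were ranked only among the groups of the GABAergic class. In the Tshz1 group all 3 of its markers were highest, in the Drd2 group 3 of 4, in the Drd1 group 2 of 4, and in the Moxd1 and Sst groups 1 of 3 each. Over all classes, the Tshz1 and Drd2 markers summed highest in their own groups. The Drd1 markers summed to 87.5 to 164 CPM in the Drd1 group, against 159 to 239 in OPCs and 121 to 172 in cholinergic nuclei. The Sst markers summed to 42.4 to 110 CPM in the Sst group, against 105 to 154 in cholinergic nuclei. Of the 4 GABAergic markers only 2 were highest in the GABAergic class. The Drd1, Drd2, Tshz1, Moxd1 and Sst groups are named by the gene that defines them and not as cell types.

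Among the 5 receptor genes with enough counts for a test between classes, Chrm2 and Chrna7 were the ones higher in cholinergic than in GABAergic nuclei, so the DNA in front of their start sites is shown. Of the 10 genes, 9 had an entry among the RefSeq promoters (GRCm38.p6). Chrm2, which encodes M2, lies on chromosome 6 from 36388084 to 36528414 on the plus strand (GENCODE vM21, GRCm38), and the printed 157 bases are chr6:36387834-36387990. Chrna7, which encodes the α7 subunit, lies on chromosome 7 from 63098692 to 63212569 on the minus strand, and the printed 207 bases are chr7:63212570-63212776. Both run 5′ to 3′ on the gene's strand, stop before any annotated base of the gene, and carry motif matches in capitals.
Chrm2: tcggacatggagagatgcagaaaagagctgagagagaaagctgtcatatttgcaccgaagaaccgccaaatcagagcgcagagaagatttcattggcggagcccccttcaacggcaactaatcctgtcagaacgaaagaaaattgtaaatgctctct
Chrna7: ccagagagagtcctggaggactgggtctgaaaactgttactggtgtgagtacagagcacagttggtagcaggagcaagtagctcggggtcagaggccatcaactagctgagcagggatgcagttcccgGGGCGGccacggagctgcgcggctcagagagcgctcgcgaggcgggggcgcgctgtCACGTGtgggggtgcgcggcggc
The motifs searched on both strands were the homeodomain core TAATTA, the GC box GGGCGG, the E-box CACGTG, a further E-box with CAGCTG and the TATA box TATAAA, and no match overlapped another. The Chrna7 window held 1 GGGCGG and 1 CACGTG, letters that stood in 26% and 4.55% of windows of that length and place over 32851 RefSeq promoters. None of the 5 was found in the Chrm2 window, where the shares of all promoters ran from 3.06% for CACGTG to 17.6% for GGGCGG. These matches describe letters only.

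Across the main neuron classes, 4 of the 5 receptor genes that passed the filter on low counts differed between cholinergic and GABAergic nuclei. Chrm2 and Chrna7 were higher in cholinergic nuclei and Chrm1 and Chrm3 were lower, whereas Chrnb2 was not called. The edgeR quasi-likelihood test, with library as a block and Benjamini-Hochberg adjustment, called 23.0% of the 12389 genes tested in that comparison. The median log2 fold was -0.19 over the 5 receptor genes and -0.02 over all genes. The other 5 (Chrm4, Chrm5, Chrna3, Chrna4 and Chrna5) were too sparse for this test and are given by their counts further on.

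Chrm2 stood at 778, 730, 789 and 816 CPM among cholinergic nuclei (778 ± 35.7, SD, n = 4 libraries). Among GABAergic nuclei it stood at 88.4, 92.2, 118 and 91.4 CPM. All cholinergic values lay far above all GABAergic ones, a log2 fold of 3.10 ± 0.19 (SE; 8.56-fold; edgeR quasi-likelihood adjusted p = 2.02e-14), higher in 4 of 4 libraries. Glutamatergic nuclei came next, at 231, 203, 191 and 179 CPM, again without overlap with the GABAergic values (log2 fold 1.11 ± 0.18 SE, 2.16-fold, edgeR quasi-likelihood adjusted p = 4.02e-05). Chrm2 was the only receptor gene of 5 called between glutamatergic and GABAergic nuclei, where 8.31% of all genes were called. The count of receptor genes called was 2 of 10 with no filter on low counts, where 1612 of 26716 genes were called. Chrm1 was then called lower in glutamatergic nuclei (log2 fold -0.53 ± 0.16 SE).

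The order was the same at equal depth. With each nucleus thinned to 2000 UMIs and shallower nuclei left out, a Chrm2 UMI was found in 71.1%, 58.1%, 60.0% and 59.7% of cholinergic nuclei. The same shares were 12.9%, 11.8%, 15% and 13.0% in GABAergic nuclei and 22.4%, 19.7%, 18.8% and 22.8% in glutamatergic nuclei. Microglia, which should lack neuronal transcripts, gave 0%, 3.61%, 9.62% and 12.5%, so the female GABAergic shares lay close to the microglial ones. Only 76, 83, 52 and 80 of the 164, 148, 168 and 274 microglia were deep enough for that measure. Summed over all microglia, Chrm2 stood at 16.9, 66.9, 53.4 and 48 CPM, against 88.4, 92.2, 118 and 91.4 in GABAergic nuclei. Without thinning, 89.5%, 95.3%, 75.0% and 79.5% of cholinergic nuclei held a Chrm2 UMI, at median depths of 20420, 19429, 7490 and 8801 UMIs, against 1.83%, 7.43%, 7.74% and 7.66% of microglia at 1946, 2062, 1492 and 1473 UMIs. The Chrm2 gene overlaps 9330158H04Rik on the opposite strand at its 5′ end, from its start at 36388084 to 36390191. The sources used here do not say whether counting used strand, so reads shared by the 2 genes cannot be told apart.

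**Figure D1:**
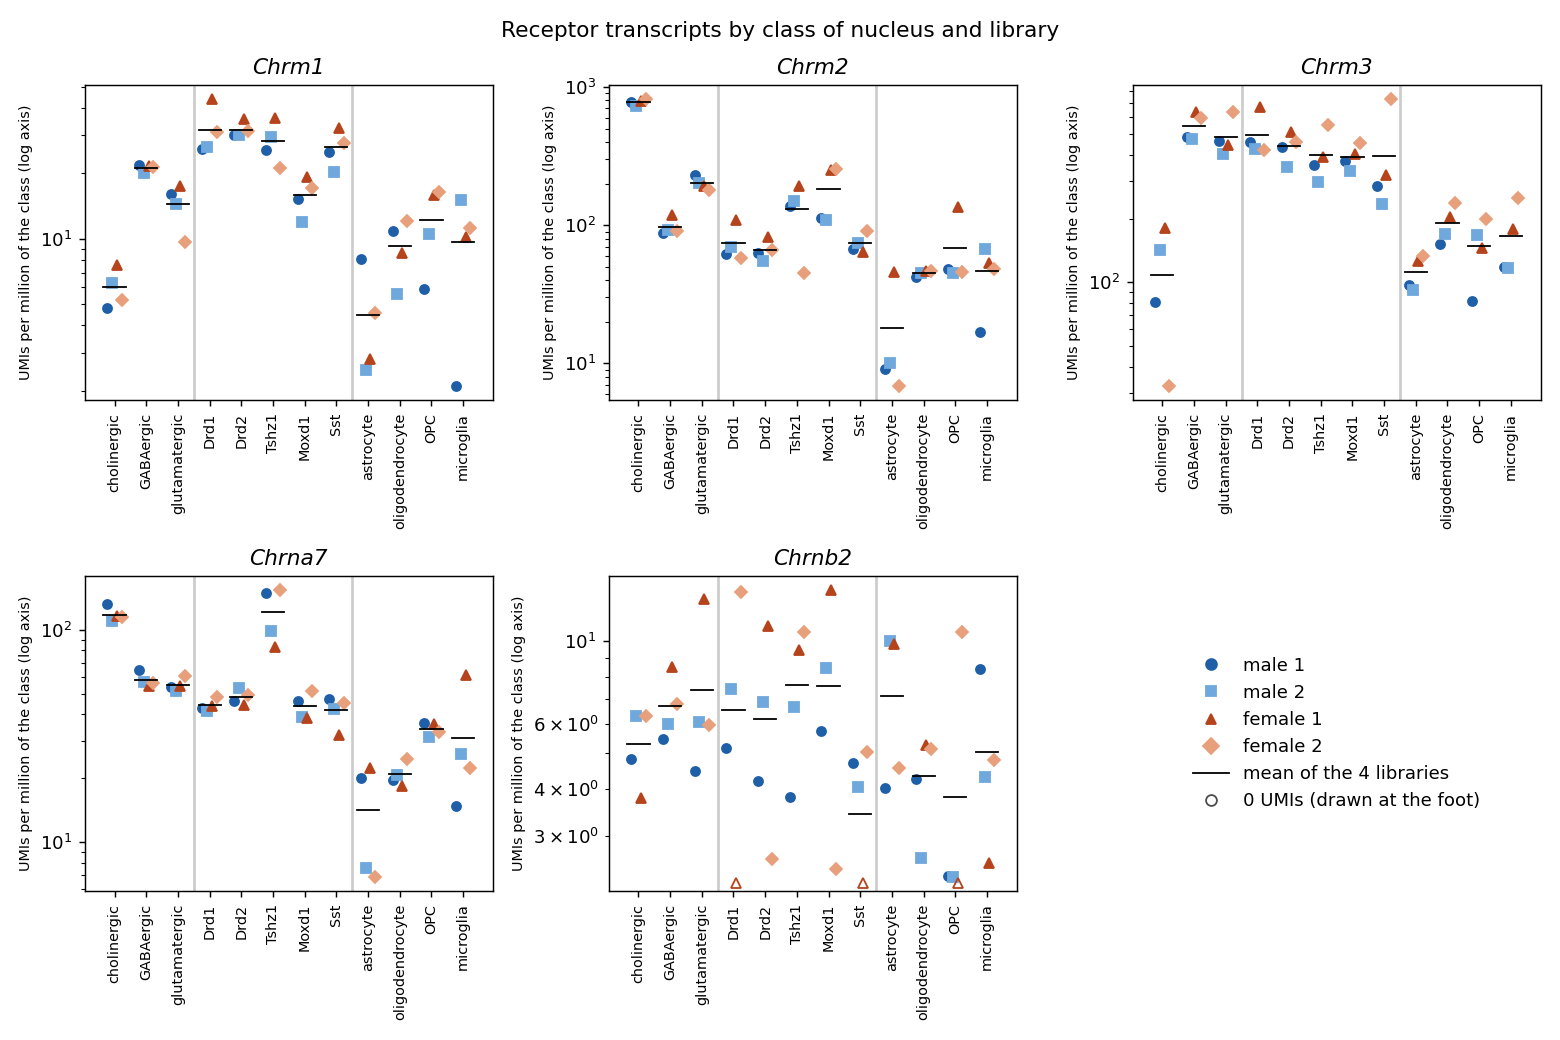
Level of 5 receptor genes (CPM, log axis) by class of nucleus, with 1 point per library and a line at the mean of 4 libraries; groups between the grey lines are splits of the GABAergic class. For Chrm2 the 4 cholinergic points lie at 730 to 816, above every other point, while for Chrm3 cholinergic nuclei reach only 32.5 to 181.

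Chrna7 was about 2 times as high in cholinergic as in GABAergic nuclei. Its level was 133, 110, 116 and 115 CPM in cholinergic nuclei and 64.9, 56.9, 54.1 and 56.1 CPM in GABAergic nuclei, with male 1 the highest of each. The ranges did not overlap, and the ratio was 2.04, 1.93, 2.14 and 2.06 in the 4 libraries (log2 fold 1.12 ± 0.13 SE, edgeR quasi-likelihood adjusted p = 2.28e-08). At 2000 UMIs per nucleus, 22.4%, 18.6%, 14.8% and 15.6% of cholinergic nuclei held a Chrna7 UMI, against 9.62%, 9.38%, 9.50% and 7.89% of GABAergic nuclei. Microglia gave 1.32%, 4.82%, 11.5% and 5%, so the GABAergic share of female 1 lay below the microglial share of that library. Glutamatergic nuclei, at 53.5, 51.3, 54.3 and 60.3 CPM, overlapped the GABAergic ones, with a log2 fold of -0.08 (95% interval -0.34 to 0.19) that was not called.

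Chrm3, which encodes the Gq-coupled M3 receptor and lies on chromosome 13 from 9875486 to 10360847, showed the opposite order. GABAergic nuclei held 487, 477, 635 and 598 CPM and glutamatergic nuclei 466, 404, 443 and 635, whereas cholinergic nuclei held 81.3, 142, 181 and 32.5. Every cholinergic value lay below every other neuronal value, at 0.216 times the GABAergic level (log2 fold -2.21 ± 0.23 SE, edgeR quasi-likelihood adjusted p = 4.77e-09). Glia ran from 82 CPM in OPCs of male 1 to 249 in microglia of female 2, so male 2 and female 1 had cholinergic values within the glial range and male 1 and female 2 below it. In the nuclei thinned to 2000 UMIs, 7.89%, 19.8%, 20.7% and 5.19% of cholinergic nuclei held a Chrm3 UMI, against 9.21%, 10.8%, 19.2% and 30.0% of microglia. The cholinergic share lay below this background in male 1 and female 2, close to it in female 1 and above it in male 2, while GABAergic nuclei gave 41.3%, 42.3%, 50.6% and 51.1%. GABAergic markers outside the rule summed to 224 to 426 CPM in cholinergic nuclei, 375 to 550 in microglia and 982 to 1250 in GABAergic nuclei, and their part in the Chrm3 level was not tested. Chrm3 overlaps Gm26861 and Gm47406 on the opposite strand, with the same limit as for Chrm2. On its own strand it overlaps Gm47411, Gm47405, 9330159N22Rik and Gm47404, where reads may be shared even if counting used strand.

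Many cholinergic nuclei also met the GABAergic threshold: 58, 70, 54 and 38 in the 4 libraries. In the 18, 16, 82 and 40 cholinergic nuclei with fewer than 2 UMIs of Gad1 and Gad2, Chrm3 stood at 12.9, 12.1, 162 and 45.9 CPM. In the remaining cholinergic nuclei it stood at 92.5, 163, 204 and 26.8 CPM, higher in 3 of 4 libraries. The low male levels without Gad UMIs were not seen in female 1, and the Chrm3 fold against GABAergic nuclei became -2.89 ± 0.28 (SE) with these nuclei alone. Chrm2 lay at 671 to 968 CPM in the nuclei with fewer than 2 Gad UMIs and 574 to 876 in the others, and Chrna7 at 81.3 to 223 and 98.1 to 130 CPM.

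Chrm1, which encodes M1 and lies on chromosome 19 from 8663789 to 8683587, was also lower in cholinergic nuclei. It stood at 4.82, 6.29, 7.59 and 5.24 CPM there, against 21.7, 20.1, 21.5 and 21.4 in GABAergic nuclei. The GABAergic values were nearly equal in all libraries, and none of the cholinergic values reached them (0.299 times, log2 fold -1.74 ± 0.26 SE, edgeR quasi-likelihood adjusted p = 3.37e-06). These cholinergic levels rest on 32 Chrm1 UMIs over the 4 libraries, and glia held 2.11 to 16.4 CPM, so the cholinergic values lay within the glial range. Glutamatergic nuclei, at 16.1, 14.5, 17.4 and 9.67 CPM, lay below the GABAergic ones in 4 of 4 libraries, a log2 fold of -0.48 (95% interval -0.83 to -0.13) that did not pass the adjustment.

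Chrnb2, the β2 subunit gene, lies on chromosome 3 from 89746195 to 89764632. It stood at 4.82, 6.29, 3.80 and 6.29 CPM in cholinergic nuclei, 5.46, 5.99, 8.51 and 6.77 in GABAergic nuclei and 4.49, 6.05, 13 and 5.95 in glutamatergic nuclei. The 3 classes overlapped, and the cholinergic against GABAergic log2 fold of -0.19 had a 95% interval of -0.86 to 0.49. Glia overlapped them too, from 0 CPM in OPCs of female 1 to 10.6 in those of female 2. Adar, on the opposite strand, covers the 3′ end of the GENCODE span of Chrnb2, up to 89753446. The RefSeq span of Chrnb2 starts at 89753448, outside Adar. Since the use of strand is not given, reads in the shared stretch cannot be told apart.

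GABAergic nuclei were set against the mean of the 4 glial classes, where 66.9% of all genes were called and 4 of the 5 receptor genes were called higher. The log2 folds were 1.40 ± 0.16 (SE) for Chrm1, 1.38 ± 0.16 for Chrm2, 1.94 ± 0.16 for Chrm3 and 1.37 ± 0.12 for Chrna7, and their median of 1.38 with Chrnb2 included compares with -0.06 over all genes. Adjusted p in edgeR's quasi-likelihood test was at most 8.25e-09 for these 4 genes. Oligodendrocytes held 151, 169, 203 and 238 CPM of Chrm3 and 41.9, 45.3, 46.4 and 46.9 of Chrm2, and glial Chrm2 ran from 6.86 CPM in astrocytes of female 2 to 135 in OPCs of female 1. GABAergic markers summed to 579 to 643 CPM in the same oligodendrocytes, and the part of neuronal RNA in the receptor levels was not tested. Of the genes around the receptors, 1 of 6 tested handling genes was higher and 3 lower in GABAergic nuclei, 10 and 4 of 18 signalling genes, and 4 and 2 of 8 modulators.

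**Figure D2:**
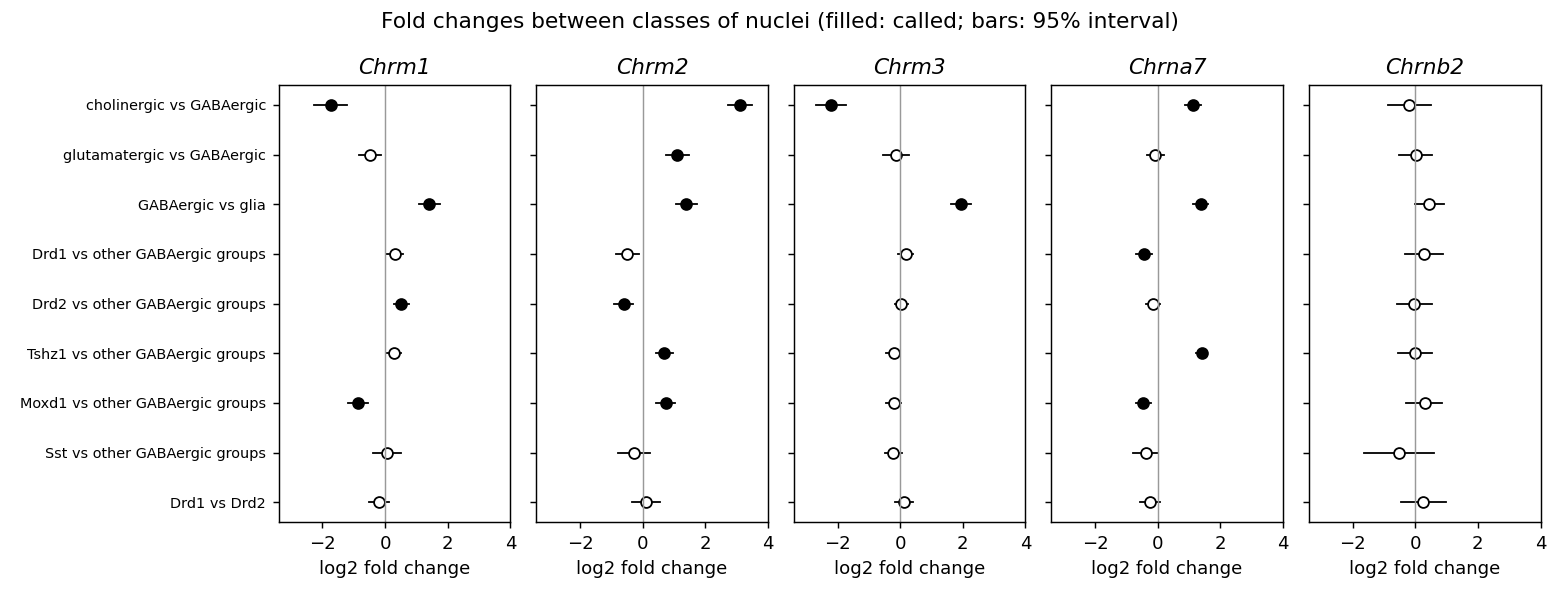
Log2 fold change of 5 receptor genes (x axis) in 9 comparisons between classes of nuclei (y axis), with 95% intervals; filled points passed an adjusted p of 0.05 in edgeR's quasi-likelihood test. Chrm2 lies at 3.10 and Chrm3 at -2.21 in cholinergic against GABAergic nuclei, and Chrna7 at 1.40 in the Tshz1 group.

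Prima1, Slc10a4 and Ache, genes for handling acetylcholine that had not defined the classes, were higher in the cholinergic class. Of 8 genes for handling acetylcholine, 6 were tested and 5 were higher in cholinergic than GABAergic nuclei. Among the 5 were Chat and Slc5a7, which had defined the class, so their result was fixed by the rule. Prima1, the membrane anchor of acetylcholinesterase, stood at 305, 345, 202 and 359 CPM against 1.82, 1.26, 2.65 and 1.93 (log2 fold 7.49 ± 0.20 SE). Slc10a4, a vesicular protein of cholinergic neurons, stood at 60.9, 62.9, 19.0 and 63.9 CPM in cholinergic nuclei (32-fold higher), and Ache, acetylcholinesterase itself, had a log2 fold of 1.47 ± 0.15 (SE).

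Modulators and effectors of the receptors were read in cholinergic nuclei as well. Of 8 nicotinic chaperones and modulators, 0 were called higher and 3 lower, with a median log2 fold of -0.54. Lypd6 (log2 fold -1.41 ± 0.35 SE) and Lypd1 (-0.94 ± 0.22), both prototoxin-like binders of nicotinic receptors, were among them. Of 20 genes of muscarinic signalling, 18 were tested, 5 were higher and 6 lower, with a median of -0.09, and Plcb3, a phospholipase C, had a log2 fold of 3.31 ± 0.37 (SE) from 7.23, 5.15, 10.4 and 9.43 CPM against 0.601, 0.575, 1.35 and 0.988. Adjusted p in edgeR's quasi-likelihood test was at most 0.00266 for Prima1, Slc10a4, Ache, Lypd6, Lypd1 and Plcb3.

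In glutamatergic against GABAergic nuclei, the signalling list had 3 genes higher and 3 lower of 18, the modulators 2 higher and 0 lower of 8, and the handling genes 1 in each direction of 6. Bche, butyrylcholinesterase, was higher (log2 fold 2.14 ± 0.36 SE, from 5.05, 8.98, 25 and 9.67 CPM against 1.38, 1.73, 4.72 and 1.93). Lypd6 (0.83 ± 0.19) and Kcnj6 (0.58 ± 0.10), a subunit of the potassium channels that Gi-coupled receptors open, were higher, and Rgs9 (-0.97 ± 0.11) and Adcy5 (-0.57 ± 0.12) lower. Slc10a4 had 0 UMIs in glutamatergic nuclei of every library. Adjusted p in edgeR's quasi-likelihood test was at most 0.0028 for these genes.

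Within the GABAergic class, the Tshz1 group had the highest Chrna7. The group held 277, 240, 88 and 58 nuclei, and Chrna7 stood at 149, 98.3, 83.2 and 154 CPM in it, against 60.1, 56.1, 53.9 and 53.1 in GABAergic nuclei that met none of the 5 thresholds. All 4 values exceeded all of those, by 2.49, 1.75, 1.55 and 2.91 times, and male 1 and female 2 were the higher pair. Against the mean of the other 5 GABAergic groups the log2 fold was 1.40 ± 0.09 (SE; 2.64-fold; edgeR quasi-likelihood adjusted p = 6.16e-16). In the order of levels, the Tshz1 group (83.2 to 154 CPM) and cholinergic nuclei (110 to 133) overlapped at the top, and both lay above every other group of neurons in every library. Of nuclei thinned to 2000 UMIs, 15.2%, 15.8%, 9.09% and 17.2% held a Chrna7 UMI, so female 1 did not exceed its whole GABAergic class on that measure.

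Chrm2 was called in the Tshz1 group as well, at 137, 150, 191 and 45.4 CPM (log2 fold 0.69 ± 0.13 SE, edgeR quasi-likelihood adjusted p = 0.000114). Female 2 went the other way, at 0.503 times its remaining GABAergic nuclei, while the other 3 libraries gave 1.61, 1.67 and 1.66 times. The call was lost with DESeq2 and without either male, and with all libraries thinned to 1 depth the log2 fold was 0.19 (edgeR quasi-likelihood and DESeq2 adjusted p over the alternatives 1.76e-14 to 0.753). In the Tshz1 comparison 2 of 5 receptor genes were called and 11.8% of all genes. The count was 3 without female 2, where 1450 of 13120 genes were called. With nuclei counted in every group they met it was 4, where 1368 of 12486 genes were called. Chrm1 was then at 0.37 ± 0.10 (SE) and Chrm3 at -0.29 ± 0.08.

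The receptor modulators also differed in the Tshz1 group, where 2 of 8 were higher and 1 lower. Lypd1 stood at 92.7, 97.2, 90.8 and 101 CPM (log2 fold 1.23 ± 0.10 SE). Lypd6b stood at 36.5, 43.1, 13.2 and 56.0 CPM (1.26 ± 0.15), with female 1 below its whole GABAergic class at 24.8. Lynx1, which lowers the sensitivity of nicotinic receptors, was lower (-0.47 ± 0.14). Of 18 signalling genes, 3 were higher and 2 lower, among them Kcnj6 (1.03 ± 0.08) and Kcnj3 (0.69 ± 0.08), subunits of the same potassium channel, and Kcnq5 (-0.60 ± 0.09), an M-current channel gene. Adjusted p in edgeR's quasi-likelihood test was at most 0.0235 for these genes.

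The Moxd1 group, of 202, 193, 58 and 53 nuclei, had more Chrm2 and less Chrm1 and Chrna7, 3 of 5 receptor genes called where 18.8% of all genes were. Its folds are against the mean of the other 5 GABAergic groups on the log scale, not against the remaining GABAergic nuclei alone. Chrm2 stood at 113, 109, 249 and 257 CPM, above the remaining GABAergic nuclei (84.9, 89.5, 115 and 90.4) in 4 of 4 libraries (log2 fold 0.73 ± 0.14 SE, edgeR quasi-likelihood adjusted p = 0.000135). Chrm1, at 15.2, 11.9, 19.2 and 17.1 CPM, lay below them in 4 of 4 libraries, at 0.731, 0.639, 0.943 and 0.826 times. Its log2 fold against the other 5 groups was -0.86 ± 0.15 (edgeR quasi-likelihood adjusted p = 2.77e-05). Chrna7, at 46.3, 38.8, 38.3 and 51.4 CPM, also lay below the remaining GABAergic nuclei in 4 of 4 libraries. Its log2 fold against the other 5 groups was -0.46 ± 0.12 (edgeR quasi-likelihood adjusted p = 0.00535). That call was lost under 4 of 12 alternatives, among them the fits without male 1 (-0.48) and without male 2 (-0.39). Over the alternatives, edgeR quasi-likelihood and DESeq2 adjusted p ran from 0.00221 to 0.187. Gna14, a G protein of the Gq family, was the signalling gene with the largest fold, at 36.8, 31.5, 76.7 and 78.3 CPM against 1.54, 0.67, 2.66 and 1.37 in the remaining GABAergic nuclei. Against the mean of the other 5 groups, some of them at 0 UMIs in a library, its log2 fold was 5.58 ± 0.25 (adjusted p = 3.26e-21), a value that depends on how such zeros are fitted.

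Of the 18 signalling genes tested, 2 were higher and 7 lower in the Moxd1 group, the lower ones including Rgs9 (log2 fold -1.32 ± 0.15 SE), Kcnq5 (-1.30 ± 0.10) and Adcy5 (-0.97 ± 0.11), the adenylyl cyclase of striatal neurons. Of 8 modulators 2 were higher and 1 lower, with Lypd6 at 1.74 ± 0.20 and Lypd1 at -1.66 ± 0.16. Lypd1 was thus higher in the Tshz1 group and lower in the Moxd1 group, while Chrm2 was called higher in both.

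The Drd1 and Drd2 groups are named for the dopamine receptor genes of the 2 classes of striatal output neuron. Both had Chrm2 at the low end of the GABAergic groups, as did the Sst group (67.5, 74.9, 64.3 and 90.4 CPM). Folds of the Drd1 and of the Drd2 group are against the mean of the other 5 GABAergic groups, not against the remaining GABAergic nuclei alone. In the Drd1 group Chrm2 stood at 61.6, 69.2, 109 and 58 CPM, and its fold was not called. In the Drd2 group Chrm2 stood at 62.5, 55, 81.8 and 66.2 CPM (log2 fold -0.61 ± 0.15 SE, edgeR quasi-likelihood adjusted p = 0.00375), below the remaining GABAergic nuclei in 4 of 4 libraries. The call was lost under 4 of 12 alternatives, among them the fit without male 2 (-0.55), with adjusted p from 2.91e-07 to 0.306 over the alternatives. Chrm1 was higher in the Drd2 group, at 29.8, 30.0, 35.4 and 31.2 CPM against 20.8, 18.6, 20.3 and 20.8 in the remaining nuclei, without overlap (0.52 ± 0.12, adjusted p = 0.000936). These were 2 of 5 receptor genes, against 15.3% of all genes.

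In the Drd1 group 1 of 5 was called, against 6.59% of all genes. This was Chrna7, at 42.6, 41.3, 43.7 and 48.3 CPM, below the remaining nuclei in 4 of 4 libraries. Against the mean of the other 5 groups its log2 fold was -0.44 ± 0.13 (SE, edgeR quasi-likelihood adjusted p = 0.0298). The call was lost under 7 of 12 alternatives, among them the fits without male 1 (-0.35) and without male 2 (-0.45). Over the alternatives, edgeR quasi-likelihood and DESeq2 adjusted p ran from 0.0156 to 0.699. Those 2 fits left 0 of 4 receptor genes called, where 352 of 9653 and 415 of 9607 genes were called. Without female 2, 3 of 5 receptor genes were called, and 772 of 13120 genes. Chrm1 in this group stood at 25.9, 26.5, 43.7 and 30.9 CPM, above the remaining nuclei in 4 of 4 libraries (1.24, 1.42, 2.15 and 1.49 times). Against the mean of the other 5 groups it was not called (log2 fold 0.30, 95% interval 0.02 to 0.58). The group held only 18 nuclei in female 1. Between Drd1 and Drd2 nuclei none of 5 receptor genes was called by edgeR or by DESeq2, none had an unadjusted p under 0.05 in either, and 4.14% of all genes were called. The intervals of the difference ran from -0.50 to 0.13 for Chrm1 and from -0.33 to 0.54 for Chrm2.

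Genes of muscarinic signalling moved in both groups. Adcy5 had log2 folds of 0.65 ± 0.09 (SE) in the Drd1 and 1.25 ± 0.08 in the Drd2 group, and Kcnq5 0.81 ± 0.08 and 1.35 ± 0.08. Rgs9, which shortens G protein signals in striatum, was among the largest in the Drd1 group (0.74 ± 0.12). Of 18 signalling genes, 5 were higher and 1 lower in the Drd1 group, and 8 higher and 3 lower in the Drd2 group. The modulator Lypd6 was called lower in both (-1.33 ± 0.34 and -1.15 ± 0.28). In the Drd1 group it stood at 4.77, 5.11, 36.5 and 0 CPM, with female 1, of 18 nuclei, above the 13.6 CPM of its remaining GABAergic nuclei. The 2 comparisons share their reference groups, and adjusted p in edgeR's quasi-likelihood test was at most 0.00889 for these genes.

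The Sst group was the smallest, with 37, 33, 5 and 48 nuclei, and none of 5 receptor genes was called in it by edgeR or DESeq2, none with an unadjusted p under 0.05, against 3.39% of all genes. Chrm3 there stood at 284, 235, 321 and 731 CPM, with female 2 far above the other 3. Without female 2 the Chrm3 fold was called (log2 fold -0.67 ± 0.11 SE). At 2000 UMIs per nucleus 27.0% and 27.3% of the male nuclei and 72.9% of those of female 2 held a Chrm3 UMI.

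**Figure D3:**
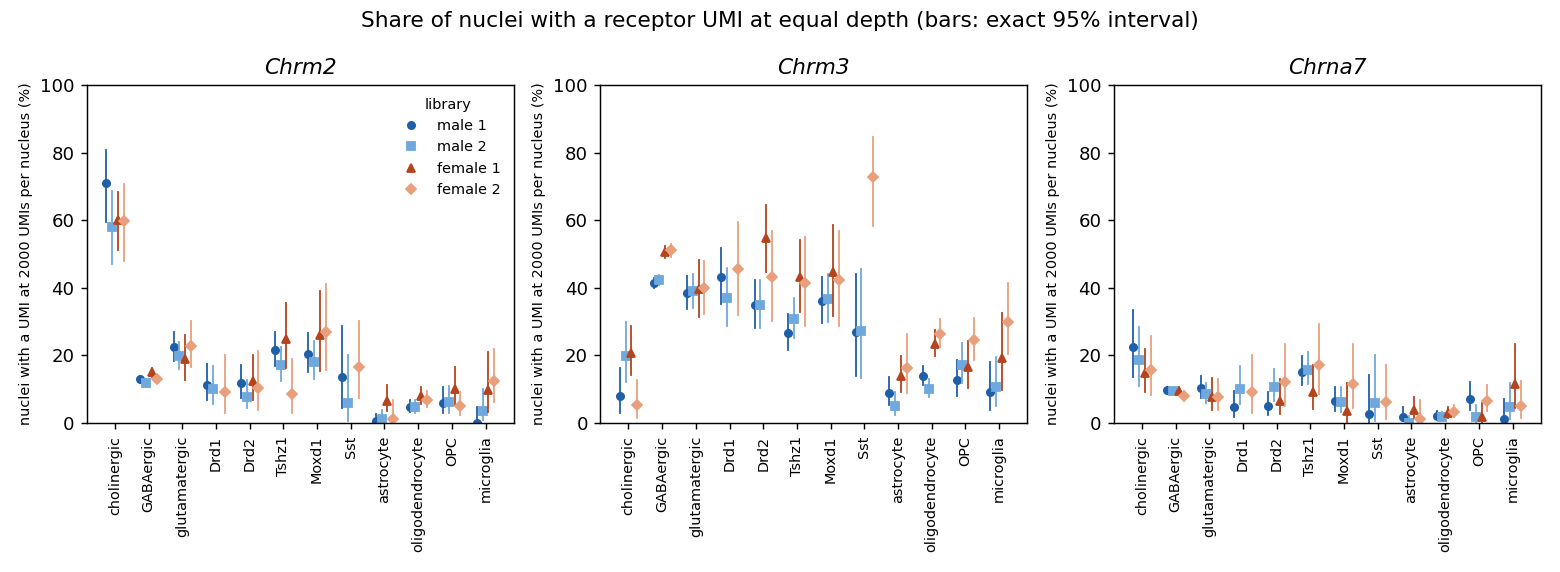
Share of nuclei with at least 1 UMI of Chrm2, Chrm3 or Chrna7 (percent, y axis) after each nucleus was thinned to 2000 UMIs, by class and library, with exact 95% intervals for counting error. Nuclei with fewer than 2000 UMIs were left out, and values from fewer than 20 nuclei are not drawn. Chrm2 reaches 58.1% to 71.1% in cholinergic nuclei, and Chrm3 only 5.19% to 20.7% there.

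The remaining receptor genes had low counts, at most 71 UMIs in the GABAergic class of a library. Chrm4, which encodes M4, gave 25, 30, 7 and 4 UMIs in GABAergic nuclei, or 0.442, 0.557, 0.363 and 0.188 CPM. In the Drd1 group, which would be the usual place for M4 in striatum, it gave 1, 5, 0 and 0 UMIs, where a count of 0 allows up to 21.9 CPM in female 1 and 5.80 in female 2 (3 counts of the total). Chrm5, the M5 gene, gave 59, 69, 5 and 33 UMIs in GABAergic nuclei (1.04, 1.28, 0.259 and 1.55 CPM) and 0, 0, 1 and 1 in cholinergic nuclei. Neither passed the filter on low counts in the class comparisons, and their folds without that filter are not given here.

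The gene models bear on both counts. In GENCODE vM21 Chrm4 is 1 exon of 1440 bases (chromosome 2, 91927249 to 91928688) and Chrm5 1 exon of 1599 bases (chromosome 2, 112479171 to 112480769), each with 3 bases beyond its coding sequence. RefSeq gives them spans of 7647 and 57629 bases, which reach 1147 and 438 bases past the 3′ end of those exons. The libraries read the 3′ ends of transcripts, and the sources used here do not name the annotation behind the gene lists, and the part of the gene model in these low counts was not tested.

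Of the nicotinic subunits, Chrna3 gave 40, 25, 2 and 11 UMIs in GABAergic nuclei (0.707, 0.464, 0.104 and 0.517 CPM) and 3, 7, 1 and 2 UMIs in cholinergic nuclei (1.81, 4.00, 0.949 and 2.10 CPM). Every library had the higher level in its cholinergic nuclei, by 2.56, 8.63, 9.14 and 4.05 times, from 13 UMIs in all. Chrna4, the partner of β2, gave 69, 71, 22 and 48 UMIs in GABAergic nuclei (1.22, 1.32, 1.14 and 2.26 CPM) and 16, 10, 3 and 8 in glutamatergic nuclei (2.99, 1.83, 3.26 and 5.95 CPM), higher in 4 of 4 libraries. With no filter on low counts the glutamatergic fold of Chrna4 was 1.07 ± 0.37 (log2, SE) and was not called (edgeR quasi-likelihood adjusted p = 0.0681). Chrna5, the accessory subunit, gave 4, 9, 1 and 2 UMIs in GABAergic nuclei and 0 in cholinergic nuclei of every library, which allows up to 1.81, 1.72, 2.85 and 3.14 CPM. In RefSeq the end of Chrna5 lies 3641 bases past that of GENCODE, within the neighbouring Chrna3 on the opposite strand.

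The other 11 nicotinic subunit genes were as sparse, and none passed the filter on low counts in the class comparisons. The 4 with the highest class means were picked after their values were seen. They were Chrna9 in microglia (4.80 CPM, from 12 UMIs of female 2 alone, a library in which Chrna9 was also the highest of the 4 in GABAergic nuclei, at 8.37 CPM against 0.519 to 1.61), Chrnb1 in microglia (3.02 CPM, from 6 UMIs), Chrna2 and Chrnb4. Chrna2 reached 2.62, 2.02, 1.89 and 1.51 CPM in the Tshz1 group, from 20 UMIs, and Chrnb4, which pairs with α3 in ganglia, 0.603, 1.14, 2.85 and 1.05 CPM in cholinergic nuclei, from 7 UMIs.

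**Figure D4:**
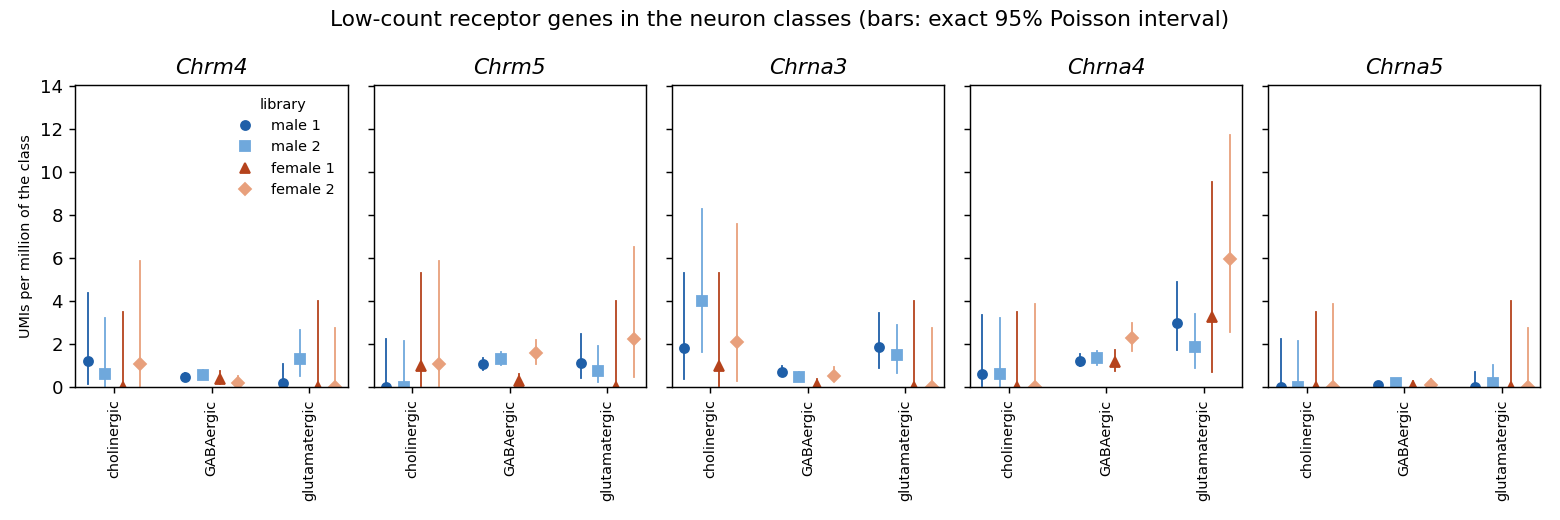
Level of the 5 receptor genes with few counts (CPM, linear axis) in the 3 neuron classes, with 1 point per library and exact 95% Poisson intervals that cover counting error only. Every point lies at or below 5.95 CPM, and the intervals in cholinergic and female glutamatergic nuclei are wide.

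Co-detection of receptor genes was read without thinning. At least 1 muscarinic gene had a UMI in 98.7%, 98.8%, 88.2% and 83.3% of cholinergic nuclei and in 81.8%, 81.7%, 77.5% and 78.7% of GABAergic nuclei. At least 1 nicotinic gene had one in 69.7%, 73.3%, 39.7% and 51.3% of cholinergic nuclei and in 43.8%, 42.8%, 27.1% and 26.9% of GABAergic nuclei. For at least 1 gene the cholinergic share was the higher in every library for both families. At least 2 muscarinic genes had a UMI in 28.9%, 36%, 23.5% and 20.5% of cholinergic and 36.6%, 35.2%, 26.4% and 26.8% of GABAergic nuclei. On that measure the cholinergic share was the higher in male 2 alone. At least 2 nicotinic genes had one in 10.5%, 14%, 2.94% and 5.13% of cholinergic and 4.53%, 4.74%, 1.72% and 1.83% of GABAergic nuclei. The cholinergic nuclei were also deeper, with medians of 20420, 19429, 7490 and 8801 UMIs against 12483, 12020, 5867 and 6163.

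Genes with the most similar profile were sought over 12 groups of nuclei, as Pearson's r of log2(CPM + 1) of the group means, among 10128 genes reaching 20 CPM in 1 group or more. Chrm2 was most like Pld5 (r = 0.97), Elavl2 and Adcy1 (0.95 each). Chrm3 was most like Efcab1 (0.97), Rnf227 (0.96) and Tceal3 (0.95), Chrm1 like Homer1 and Hpcal4 (0.98 each) and Nopchap1 (0.97), and Chrna7 like Zcchc14 (0.94), Gpr158 and Cdh22 (0.91 each). The 12 points share libraries and depth, and the contrast of neurons with glia enters every r, so these values describe the profiles only. The other 6 genes stayed under 20 CPM in every group.

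Male and female libraries were compared where each of the 4 held at least 20 nuclei of the class. Almost no gene passed in these comparisons of 2 against 2 libraries, so a count of 0 receptor genes lay at the background. In cholinergic nuclei none of 3 receptor genes tested was called, against 0.0498% of all genes. Chrm2 means were 754 CPM in males and 802 in females (male over female log2 fold -0.06, 95% interval -0.39 to 0.28). Chrna7 means were 121 and 116 CPM (0.10, -0.33 to 0.53), and Chrm3 means 112 and 107 CPM, with an interval of -1.59 to 1.71 since the 2 females, at 181 and 32.5, enclosed both males.

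In GABAergic nuclei none of 9 receptor genes was called, against 0.00545% of all genes. Chrm3 was higher in both females (635 and 598 CPM) than in both males (487 and 477), a log2 fold of -0.28 with an interval of -0.63 to 0.06. Chrm1 stood at 20.9 CPM in males and 21.5 in females (0.03, -0.36 to 0.43). With only 1 female left, whose spread was then assumed to be that of the males, 4 of 9 receptor genes were called without female 1 and 6 of 9 without female 2, where 51.1% and 56.3% of all genes were called, so both counts lay near that background. The direction for Chrm2 turned between them, 0.20 without female 1 and -0.36 without female 2.

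None of 6 receptor genes was called in glutamatergic nuclei (0.0631% of all genes), none of 5 in the Drd2 group (0.0629%) and none of 5 in the Tshz1 group (0.0446%). DESeq2 also called 0 in each of these and in the cholinergic and GABAergic classes. Of all these tests only that of Chrm3 in the Tshz1 group had an unadjusted p under 0.05 in edgeR (log2 fold -0.47, adjusted p = 0.441, at 357 and 297 CPM in males and 390 and 553 in females). With 1 female left out, many more genes were called. In cholinergic nuclei 1 of 5 receptor genes was called without female 1 (7.64% of all genes) and 1 of 5 without female 2 (14.3%), each time Chrm3, at log2 folds of 1.87 and -0.69. Without female 1, 2 of 7 were called in glutamatergic nuclei (15.4%) and 2 of 5 in the Tshz1 group (5.10%), and without female 2, 1 of 5 in the Drd2 group (14.9%). The Drd1 and Sst groups held too few nuclei in female 1 for a test.

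The Moxd1 group gave the only sex difference called, in 1 of 5 receptor genes against 0.294% of all genes. Chrm2 stood at 113, 109, 249 and 257 CPM, with both females above both males, each pair lying close together (male over female log2 fold -1.15 ± 0.18 SE, 0.450 times, edgeR quasi-likelihood adjusted p = 0.0483). The call was lost under 5 of 12 alternatives, among them the fits without male 1 (log2 fold -1.21) and without male 2 (-1.13), with adjusted p from 9.41e-09 to 0.211 over the alternatives. At 2000 UMIs per nucleus 20.3%, 18.1%, 25.9% and 26.9% of nuclei held a Chrm2 UMI, where microglia gave 0%, 3.61%, 9.62% and 12.5%, also higher in both females. With libraries thinned to 1 depth the log2 fold was -1.52 ± 0.21 (SE; adjusted p = 0.0579). The group itself differed between the sexes in other genes: its markers Esr1, Prlr and Cyp19a1 summed to 182, 177, 52 and 34.3 CPM, against 107 to 140 in the remaining GABAergic nuclei. Whether the same cells met the Moxd1 threshold in each sex was not tested, and depth and software cannot be told apart from sex here.

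The difference between the sexes was itself compared between classes. None of 9 receptor genes was called for cholinergic against GABAergic nuclei (0.273% of all genes) and none of 5 for Drd1 against Drd2 (0.123%), and DESeq2 also called 0 in both. The second of these used sums of at least 5 nuclei and so includes the 18 Drd1 nuclei of female 1. None of the second had an unadjusted p under 0.05 in edgeR. In the first, Chrm3 was the only receptor gene that did, at a log2 interaction of 0.47 ± 0.17 (SE), where DESeq2 gave 0.81 ± 1.10. Its direction turned to -2.77 ± 0.49 and was called when only cholinergic nuclei with fewer than 2 Gad UMIs were used, the set in which Chrm3 stood at 12.9, 12.1, 162 and 45.9 CPM. It was called in the first direction without female 1 (2.07 ± 0.32) and with libraries thinned to 1 depth (1.05 ± 0.20), and without female 2 it was -0.31, not called. No direction can be read for Chrm3 from these fits.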

How the data were processed

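The authors deposited, for each of 4 libraries, a matrix of whole-number UMI counts per gene and barcode. The tools in the submitters' processing notes are Cell Ranger 6.0.1 and Seurat 5, on build mm10, but the file headers carry other Cell Ranger versions, which were 9.0.1 in the males, 7.0.0 in female 1 and 7.2.0 in female 2. The labels name 3′ reagents of different versions, and the kit of each library and its use of strand and introns are not given in the sources used here. The genes and lists below were chosen with earlier results of these data known.

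Counts were read over the 31899 genes listed in all 4 libraries, which held 97.7% to 99.6% of each library's UMIs. Nuclei with 500 to 8000 genes and under 5% mitochondrial counts were kept, 8829, 8577, 10881 and 10581 of male 1, male 2, female 1 and female 2. The GABAergic groups required at least 2 UMIs of Drd1, Drd2 or Moxd1 or 3 of Tshz1 or Sst, and nuclei meeting several were left out. Doublets were limited by leaving out nuclei in 2 or more classes, and Scrublet scores were an alternative. Cholinergic nuclei were allowed Gad UMIs, as the rule gives them precedence.

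The UMI counts of each class were added up within a library and tested with edgeR 4.0.16 in R 4.3.3 (two-sided quasi-likelihood test after filterByExpr and TMM scaling, Benjamini-Hochberg over all genes tested, called under 0.05), with library as a block between classes and none between sexes. Sums of fewer than 5 nuclei were left out. Alternatives were DESeq2 1.42.0, median-ratio factors, no filter, each library left out, raised thresholds, libraries thinned to 1 depth, Scrublet removal (scanpy 1.11.5), overlapping groups, other blocks and, added after seeing the data, cholinergic nuclei with fewer than 2 Gad1 and Gad2 UMIs. The tests were tested on simulated data. CPM values are not TMM-scaled. Shares have exact Clopper-Pearson and levels exact Poisson 95% intervals, for counting error only. All 10 receptor genes were named, with at most 6 other genes of fixed pathway lists per comparison (those called with the largest fold) and the 3 most similar profiles per gene.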

Additional observations from a re-analysis of the deposited data

Results flagged for a closer look

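In Chrna7 the log2 ratio of glutamatergic to GABAergic nuclei was below 0 in both males (-0.28 and -0.15) and above 0 in both females (0.01 and 0.10), so every male moved one way and every female the other. The male mean minus the female mean was -0.27. The difference was not tested, the female ratios lay near 0, and sex cannot be told apart from depth and software in these libraries.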

How the results depend on the processing

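Of 407 refits of 35 results, 346 kept the direction and call of a fold or left a count of receptor genes called within 1.5 times, 35 moved such a count further, 26 lost the call of a single fold and 0 reversed one. The folds of Chrm2, Chrna7, Chrm3 and Chrm1 between cholinergic and GABAergic nuclei stayed called under all 12 alternatives, at 3.02 to 3.18, 1.03 to 1.21, -2.89 to -1.96 and -2.22 to -1.62 (log2). Within that tolerance 8 counts still changed. With no filter, cholinergic against GABAergic went from 4 of 5 tested to 5 of 10, where 3408 of 26716 genes were called. GABAergic against glia went from 4 of 5 to 6 of 10 with no filter, where 10079 of 26716 genes were called. In both, the shares called were below those of the main fit, among receptor genes and among all genes. Without female 2, GABAergic against glia went to 5 of 5 (7776 of 12398 genes called) and Tshz1 from 2 to 3 of 5 (1450 of 13120). Moxd1 went from 3 to 2 without male 1, without male 2, with raised thresholds and with thinned libraries. In that order, these fits called 1297 of 9653, 1228 of 9607, 1719 of 10960 and 933 of 8727 genes. Other counts moved as follows, the cause of each being untested, with the number called over all genes in brackets. With DESeq2, Drd1 gave 0 called and Tshz1 1 (685 and 1190 of 11806 genes). With no filter, Drd1 gave 2 of 10 (859 of 26182 genes) and glutamatergic nuclei 2 of 10 (1612 of 26716 genes). With raised thresholds, Drd1 gave 0 and Drd2 1 (418 and 1870 of 10960 genes). With libraries thinned to 1 depth, Drd1 and Drd2 gave 0 and Tshz1 1 (221, 909 and 456 of 8727 genes). The Moxd1 sex difference then gave 0 (5 of 7435) and the sex by class test of cholinergic nuclei 1 (55 of 16448). With no library block, Drd1 gave 0, Drd2 1 and Tshz1 1 (277, 821 and 617 of 11806 genes). With overlapping groups Tshz1 gave 4 (1368 of 12486 genes) and the Moxd1 sex difference 0 (19 of 11141). With Scrublet removal the Moxd1 sex difference also gave 0 (15 of 10211). Cholinergic nuclei with few Gad UMIs gave 1 in the sex by class test (31 of 16458 genes). Leaving out 1 library gave 0 to 3 for Drd1, 1 to 2 for Drd2, 1 to 3 for Tshz1 and 0 to 1 for Sst. Of 9607 to 13120 genes, these fits called 352 to 772, 974 to 1794, 675 to 1450 and 162 to 413. For sex, each such fit left 1 library in a group. The count then changed in at least 1 fit for GABAergic, Moxd1, Tshz1, cholinergic, glutamatergic and Drd2 nuclei. It also changed in the sex by class test of cholinergic against GABAergic nuclei. In GABAergic nuclei the sex fits without a female called 51.1% and 56.3% of all genes. The replicate numbers only name libraries: differences of replicate 1 from 2 correlated at 0.116 between the sexes over 18345 genes, with only 2 pairs. With the number as a replicate block, counts of receptor genes called stayed within 1.5 times, and Chrm2 in the Moxd1 group had a male over female log2 fold of -1.15 (edgeR quasi-likelihood adjusted p = 0.00499). Over all genes, DESeq2 called 901 against 1 by edgeR between the sexes in GABAergic nuclei, 94 against 5 in cholinergic, 179 against 8 in glutamatergic, 65 against 7 in Drd2, 55 against 5 in Tshz1 and 124 against 31 in Moxd1 nuclei, and 4 against 46 and 0 against 14 in the sex by class tests of cholinergic and Drd1 nuclei. The females held 53098268 and 53679351 UMIs against 158132452 and 144035342 in the males, and the 5 sparse genes rest on at most 71 UMIs in any class of a library.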

Other observations

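Receptor genes were also detected in nuclei that met no class. Chrm3 stood at 363, 369, 465 and 475 CPM in them (male 1, male 2, female 1, female 2), Chrm2 at 110, 118, 124 and 95.6 and Chrna7 at 47.5, 46.7, 48.3 and 38.5. They numbered 1730, 1785, 5188 and 4888, with medians of 6922, 6721, 3536 and 3207 UMIs. In nuclei of 2 or more classes, with medians of 19228, 19299, 8283 and 8026 UMIs, Chrm3 stood at 392, 377, 377 and 511 CPM and Chrm2 at 104, 90, 97.2 and 113.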
